A study of Mus musculus with 72 samples.

Results

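Genes of the interleukin-6 (IL-6) cytokine family were followed in mouse melanoma cells exposed to gastrin-releasing peptide (GRP). The set held 8 of the 50600 genes in the count table, taken by symbol. It comprised 4 ligand genes (Il6, Il11, Lif and Clcf1), 3 receptor genes (Il6st, Lifr and Osmr) and the feedback inhibitor Socs3. The genes were picked because they had stood out in the GRP response of these same libraries. Values of GRP against mock in the lines that carry the GRP receptor are therefore given as a description, without p-values.

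RNA was sequenced from 72 libraries, made of 6 melanoma lines, 4 treatments and 3 replicates of each. After 18 h of starvation in 0.5% serum, cells received for 4 h either mock treatment (0.1% DMSO), 10 nM GRP, 1 µM RC (RC-3095, an antagonist of the GRP receptor GRPR) or GRP with RC (GRP+RC). The labels state DMSO for mock treatment only. All 6 lines came from melanomas of mice with the Tyr::NRASQ61K transgene, an activated NRAS driven by the tyrosinase promoter of pigment cells. The female lines 1057 and 1064 also carry Cdkn2a-/-, Tyr::CreA and Cdh1dF/dF, so that E-cadherin is deleted in pigment cells, and both express Grpr from its own locus. The female line 1014 has no further allele in its labels, and the male line 1181 is labelled Cdkn2a-/- and Cdh1dF/dF without Cre. Both were studied with a CMV-driven Grpr/tGFP construct (1014-Grpr, 1181-Grpr) or with CMV::tGFP alone (1014-Ctrl, 1181-Ctrl). Each is 1 cell line, and nothing in the labels says that replicates came from separate experiments. The study reports biological triplicates or more for its cell culture experiments in general. The p-values measure the spread between these libraries of single lines, which may be technical.

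IL-6 family cytokines share gp130, the receptor chain encoded by Il6st. IL-6 and IL-11 first bind a private receptor and then bring gp130 chains together, whereas LIF and CLCF1 bring gp130 together with the LIF receptor, and oncostatin M can use the oncostatin M receptor, encoded by Osmr. The paired receptors activate JAK kinases and the transcription factor STAT3, and STAT3 induces Socs3, whose product dampens the same receptors. In melanoma, members of the family are known as products both of tumour cells and of the surrounding stroma.

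On the mouse genome GRCm38, Il6 lies at chr5:30013114-30019981 (+ strand), Il11 at chr7:4772373-4782859 (- strand), Lif at chr11:4257557-4272514 (+ strand) and Clcf1 at chr19:4214238-4223490 (+ strand). Il6st lies at chr13:112464070-112510086 (+ strand), Lifr at chr15:7090614-7197489 (+ strand), Osmr at chr15:6813577-6874969 (- strand) and Socs3 at chr11:117966079-117970047 (- strand). All 8 are protein-coding. Exons of Clcf1 share 8.17% of their bases with AC109138.7 on the same strand, so that a part of its reads could belong to either gene, and the other 7 overlap no other exon.

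The 250 bases before a RefSeq start site (GRCm38.p6) are shown for the 3 cytokine genes with the largest GRP responses and for Socs3, the STAT-induced inhibitor. Il11 has 2 start sites, and the one whose window holds a match is shown. That window lies within an intron of the longer Il11 transcripts. Capitals mark matches, on either strand, to an AP-1 motif (TGANTCA), a STAT motif (TTCNNNGAA), an NF-kB motif or an EGR motif (GCGNGGGCG). A CRE motif (TGACGTCA) was also searched. No 2 matches overlapped.
Il6, chr5:30012864-30013113 (+): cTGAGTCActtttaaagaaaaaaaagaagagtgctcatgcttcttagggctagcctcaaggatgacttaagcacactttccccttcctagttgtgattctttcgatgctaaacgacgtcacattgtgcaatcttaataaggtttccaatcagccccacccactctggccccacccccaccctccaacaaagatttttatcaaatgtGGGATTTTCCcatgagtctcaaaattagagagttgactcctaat
Il11, chr7:4778142-4778391 (-): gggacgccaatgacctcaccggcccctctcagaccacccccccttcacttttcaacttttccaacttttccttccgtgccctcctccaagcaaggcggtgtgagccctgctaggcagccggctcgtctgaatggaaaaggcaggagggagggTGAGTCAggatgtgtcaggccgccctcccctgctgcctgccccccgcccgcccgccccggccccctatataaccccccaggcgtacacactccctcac
Lif, chr11:4257318-4257567 (+): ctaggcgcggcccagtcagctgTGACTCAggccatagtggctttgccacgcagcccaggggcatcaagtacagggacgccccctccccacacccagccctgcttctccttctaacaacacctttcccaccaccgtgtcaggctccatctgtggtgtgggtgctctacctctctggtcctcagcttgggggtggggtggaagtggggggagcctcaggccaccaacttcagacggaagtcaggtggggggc
Socs3, chr11:117969367-117969616 (-): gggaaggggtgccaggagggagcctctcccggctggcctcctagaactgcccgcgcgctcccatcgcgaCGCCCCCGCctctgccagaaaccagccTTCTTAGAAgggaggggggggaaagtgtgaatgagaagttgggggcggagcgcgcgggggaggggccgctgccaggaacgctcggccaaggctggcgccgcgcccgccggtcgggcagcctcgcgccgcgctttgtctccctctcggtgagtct

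The windows of Il6, Il11 and Lif each held 1 AP-1 match, a motif found in 6.75% of 32851 RefSeq promoter windows of this length. The match began 249 bases before the start in Il6, 98 in Il11 and 228 in Lif. The Il11 window was picked for its match and its other window held none, so the share does not apply to it. Il6 also held an NF-kB match at 44 bases before the start, a motif in 0.356% of windows. Socs3 held a STAT match at 154 bases and an EGR match at 181 bases before the start, motifs in 7.02% and 4.7% of windows. Of the receptors, Lifr held 1 EGR match, in 1 of its 2 windows, and Il6st and Osmr held no match to the 5 motifs. The CRE motif, in 1.55% of windows, matched in none of them. A match is a string of letters and not a measured binding site. The promoter of Clcf1 was not analysed here.

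Library totals ran from 19512882 to 46862053 counted reads, and a count of 3, taken as the floor, equals 0.064 to 0.154 in CPM, counts scaled to the size of the library. Grpr, the gene that defines the lines, was at 107 to 1284 CPM in every library of 1057, 1064 and 1014-Grpr, and the 1181-Grpr line had a median of 17.9. The control lines were at most at 0.0915 CPM, with 1 exception. The library labelled 1014-Ctrl mock replicate 2 held 1165 Grpr counts, while the library labelled 1181-Grpr GRP+RC replicate 2 held 0. Socs3 set the same pair apart, with 471 counts against 131 and 126 in the other 1014-Ctrl mock libraries, and 119 against 315 and 357 in the other 1181-Grpr GRP+RC libraries. Cdh1 was at most at 0.119 CPM in 1057 and 1064, whereas both versions of 1181, labelled Cdh1dF/dF, held it at 9.74 to 26.9 CPM apart from 4.6 CPM in the 1181-Grpr library without Grpr counts. Cdh1 also set the 1014-Ctrl library with 1165 Grpr counts apart, at 22.7 CPM against 3.38 and 2.04 in the other mock libraries of that line. All 7 pigment-cell markers were above 1 in TPM, transcript levels scaled for length and library size, in every line by median. Of 6 immune markers, Cd68 alone passed that level, and Ptprc, Adgre1 and Cd3e were under 0.1 TPM by median in all lines. The sum of the 6 ran from 3.01 to 100.5 TPM over all libraries, and in the GRP and mock libraries it averaged 13.9 and 3.71 TPM in 1057, 9.35 and 5.76 TPM in 1064, and 16.4 and 7.03 TPM in 1014-Grpr. Its part in the results with GRP was not tested. Fibroblast markers summed to 0.25 to 9.52 TPM, endothelial markers to 0.01 to 4.73 TPM and keratinocyte markers to at most 3.42 TPM. These are bulk libraries, so that fewer cells making a transcript and less transcript per cell cannot be told apart.

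Resting levels differed mostly in Lif, Osmr and Socs3. Values per length in mock-treated cells are the authors' TPM, with the mean and SD of 3 libraries. Il6st was the most abundant member in each line, at 35.2 ± 0.767 TPM in 1057 and 49.8 ± 7.11 TPM in 1014-Ctrl, the extremes of the 6 lines. Lif, which supports stem cells and signals through gp130 and its own receptor, stood at 31.9 ± 0.382 TPM in 1057 and 17.9 ± 7.89 TPM in 1064, without overlap. It was at 1.77 ± 0.0551 TPM in 1014-Grpr, 1.44 ± 0.532 TPM in 1014-Ctrl, 0.4 ± 0.32 TPM in 1181-Grpr and 0.0467 ± 0.0208 TPM in 1181-Ctrl. The ranges of both versions of 1014 overlapped, as did those of both versions of 1181, and the other neighbours in this order did not. Lifr ranged only from 0.95 ± 0.446 TPM in 1014-Ctrl to 1.8 ± 0.052 TPM in 1057, and only 1057 was separate from the next line.

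Osmr, the oncostatin M receptor, was present at rest in 1064 (1.22 ± 0.507 TPM), low in both versions of 1014 and in 1181-Grpr (0.127 to 0.217 TPM), and close to absent in the remaining lines. It had 3 counts in all over the 12 libraries of 1057 and 0 counts in all 12 libraries of 1181-Ctrl. Socs3 was at 20.6 ± 8.3 TPM in 1181-Ctrl, 18.4 ± 6.86 TPM in 1181-Grpr, 12.3 ± 10.7 TPM in 1014-Ctrl, 6.3 ± 1.84 TPM in 1014-Grpr, 2.5 ± 0.331 TPM in 1057 and 2.37 ± 0.944 TPM in 1064. In this order the only neighbours without overlap were 1014-Grpr and 1057. The library labelled 1014-Ctrl mock replicate 2 held 24.6 TPM and the other 2 of that line 6.24 and 6.01 TPM, so that without it 1014-Ctrl also lay below every library of 1181-Grpr, the lowest of which held 13.4 TPM. Il6, the pyrogenic cytokine of the acute phase, and Il11 were near the floor at rest, at no more than 0.303 and 0.847 TPM on average, and Clcf1, a neurotrophic cytokine, at 0.3 to 1.46 TPM.

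**Figure D1:**
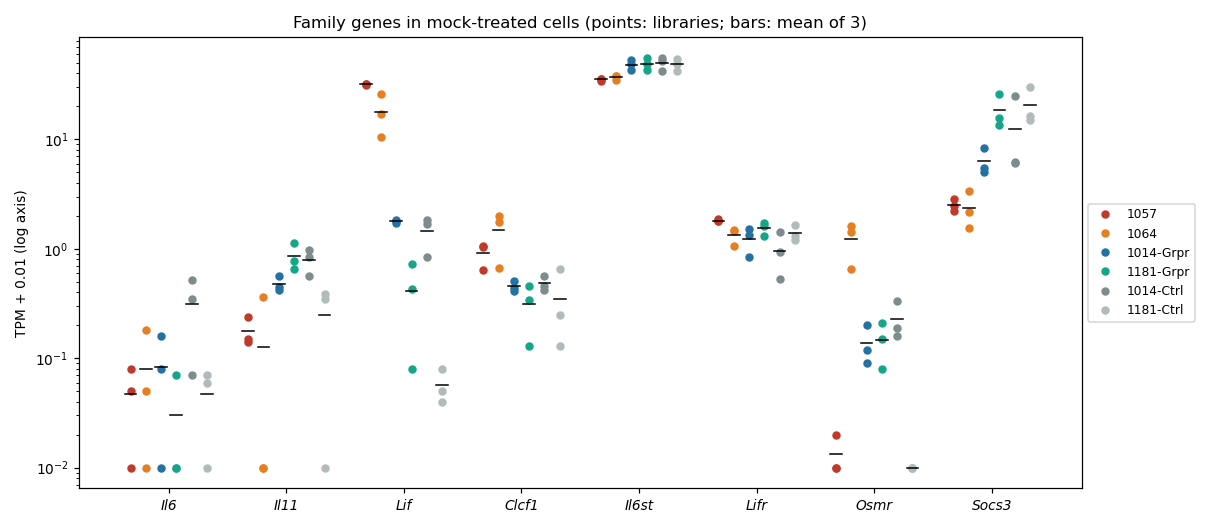
Levels of the 8 genes in mock-treated cells of 6 lines, as TPM + 0.01 on a log axis; points are libraries and bars the mean of 3. Lif is highest in 1057 and 1064, Osmr is highest in 1064 and at 0 in 1181-Ctrl, and Socs3 is lowest in 1057 and 1064.

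A gene was called at an adjusted p under 0.05 (edgeR's quasi-likelihood test, Benjamini-Hochberg over all genes tested) with an absolute log2 fold change above 1. Between resting 1057 and resting 1064, which share their genotype labels, 1 of 8 members was called lower in 1057, beside 15.4% of all genes. It was Osmr, with 2 counts in the 3 mock libraries of 1057 and 348 in those of 1064 (log2 fold change -7.61 ± 0.632 SE, adjusted p = 5.13e-08). The ratio of 1064 over 1057 was 235, with a 95% interval of 64.6 to 1950 that covers counting error only. Lif was higher in 1057 by 0.83 ± 0.325 on the log2 scale (adjusted p = 0.0333), under the fold limit. Among the private receptors, Il6ra, which binds IL-6, stood at 14.4 ± 0.677 TPM in 1057 and 0.223 ± 0.0896 TPM in 1064 (log2 fold change 6.003 ± 0.276, edgeR adjusted p = 9.3e-13). Cntfr, the CNTF receptor that also binds CLCF1, was lower in 1057 by the same test (log2 fold change -2.96 ± 0.352, adjusted p = 6.23e-07), at 8.92 ± 0.54 TPM against 71.5 ± 20.3 TPM.

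Among mock-treated cells of the transfected pairs, members were called in 1181 only, where 2 of the 7 tested were higher in 1181-Grpr, beside 6.04% of all genes. Lif had 3, 20 and 14 counts in 1181-Grpr and 2, 1 and 1 in 1181-Ctrl (log2 fold change 3.07 ± 0.981, edgeR adjusted p = 0.0474). Without replicate 2 the adjusted p was 0.28, without replicate 3 it was 0.367, and with no filter on low counts it was 0.0662. Osmr had 8, 16 and 13 counts against 0 in each of 3 libraries, at least 10.9-fold higher by the floor of 3 counts over the group, with an adjusted p of 0.00199 that was 0.0876 without replicate 3. Without the 2 libraries that go against their labels both were still called (edgeR adjusted p = 0.0257 for Lif and 0.000333 for Osmr). In 1014, none of 7 members was called by edgeR or DESeq2, beside 1.62% of all genes, and 1, Socs3, had an unadjusted p under 0.05. It stood at log2 fold change -0.96 ± 0.384 (edgeR adjusted p = 0.169), and at 0.06 ± 0.235 without the 2 libraries that go against their labels.

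In 1057, GRP raised 5 of the 7 members tested, beside 4.96% of all 14195 genes tested that were called higher. This count uses the values the genes were picked on, and Il6 and Il11 passed the filter on low counts only through groups given GRP. Il6 had 2, 0 and 1 counts in mock, and 16, 29 and 35 with GRP. Il11, a gp130 cytokine of bone and stroma, had 3, 3 and 5 counts in mock, and 47, 68 and 54 with GRP. All GRP libraries of both genes lay above all mock libraries. The count ratio of GRP over mock was 26.8 for Il6 (95% interval 8.84 to 133) and 15.4 for Il11 (8.4 to 31.5), and the fitted log2 fold changes were 4.64 ± 0.544 and 3.97 ± 0.322.

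Lif in 1057 was already abundant at rest. It had 41.7, 40.8 and 41.3 CPM in mock, and 88.9, 80.7 and 84.1 CPM with GRP (log2 fold change 1.03 ± 0.0421). Clcf1 went from 1.15, 0.694 and 1.16 CPM to 4.73, 4.45 and 4.93 CPM (2.23 ± 0.151). Groups did not overlap for either gene. The receptor Lifr went from 5.54, 5.69 and 5.37 CPM to 14.8, 13.5 and 12.8 CPM (1.31 ± 0.0755). Il6st moved from 116 ± 0.713 to 126 ± 3.37 CPM (0.12 ± 0.0326) and Socs3 from 2.15 ± 0.25 to 3.45 ± 0.512 CPM (0.69 ± 0.136), both under the fold limit although their GRP libraries also lay above every mock library.

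In 1064, 1 of the 6 members tested was called higher, beside 1.52% of all genes. Clcf1 had 1.77, 0.708 and 2.25 CPM in mock, and 15.6, 12.6 and 10.0 CPM with GRP, without overlap (log2 fold change 2.99 ± 0.456). It was not called without replicate 1 or without replicate 2 of all groups. Lif had 12.6, 21.2 and 34.7 CPM in mock, and 47.5, 61.2 and 48.9 CPM with GRP (1.2 ± 0.44). Osmr had 2.14, 5.57 and 5.22 CPM in mock, and 10.3, 12.6 and 6.96 CPM with GRP (1.21 ± 0.337). Lifr had 4.07, 3.11 and 4.62 CPM in mock, and 4.8, 15.3 and 7.17 CPM with GRP (1.2 ± 0.364). For these 3 genes all GRP libraries lay above all mock libraries, and the spread among replicates kept them from being called. With the replicate number as a block, which pairs the libraries of this line, all 3 were called, at log2 fold changes of 1.24, 1.21 and 1.08, so that 4 members were called.

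Il6 and Il11 were too low in 1064 to be tested. Il6 had 3, 0 and 1 counts in mock, and 21, 1 and 10 with GRP. Il11 had 0, 0 and 7 counts in mock, and 73, 7 and 3 with GRP. In both genes GRP and mock overlapped, and for Il11 a single library (replicate 1) held most of the counts. Socs3 stood at 1.96 ± 0.714 CPM in mock and 1.75 ± 0.241 CPM with GRP, with overlap (log2 fold change -0.17 ± 0.263), and Il6st at 119 ± 2.32 and 122 ± 10.3 CPM.

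In 1014-Grpr, 5 of the 7 members tested rose, beside 3.16% of all genes. Lif had 2.18, 2.09 and 2.15 CPM in mock, and 60.1, 134 and 85.3 CPM with GRP (log2 fold change 5.44 ± 0.291). Il11 had 9, 8 and 5 counts in mock, and 142, 361 and 519 with GRP (5.23 ± 0.353). Its count ratio was 36.7, with a 95% interval of 24.1 to 58.7. In this line Il11 passed the filter on low counts only through groups given GRP. The log2 responses of Lif and Il11 here were the largest of any member and line.

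Clcf1 in 1014-Grpr had 0.449, 0.523 and 0.403 CPM in mock, and 1.31, 2.15 and 2.49 CPM with GRP (2.1 ± 0.357). Osmr had 0.38, 0.647 and 0.269 CPM in mock, and 1.92, 2.28 and 2.28 CPM with GRP (2.27 ± 0.315). The groups of both genes were apart. Lifr went from 2.42, 4.37 and 3.71 CPM to 5.67, 9.81 and 6.89 CPM (1.09 ± 0.267), and its fold was under the limit, at 0.88 and 0.85 on the log2 scale, without mock replicate 1 or without GRP replicate 2. It was also not called without replicate 3 of all groups. Il6st stood at 149 ± 11 CPM in mock and 219 ± 28.3 CPM with GRP (0.56 ± 0.104), its largest response in any line, with every GRP library above every mock library. Socs3 was at 5.08 ± 1.52 and 7.21 ± 1.34 CPM, with overlap (0.49 ± 0.235). Il6 had 3, 0 and 1 counts in mock and 5, 5 and 20 with GRP, apart but too few to be tested, with a count ratio of 5.92 (95% interval 2.09 to 23.1).

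**Figure D2:**
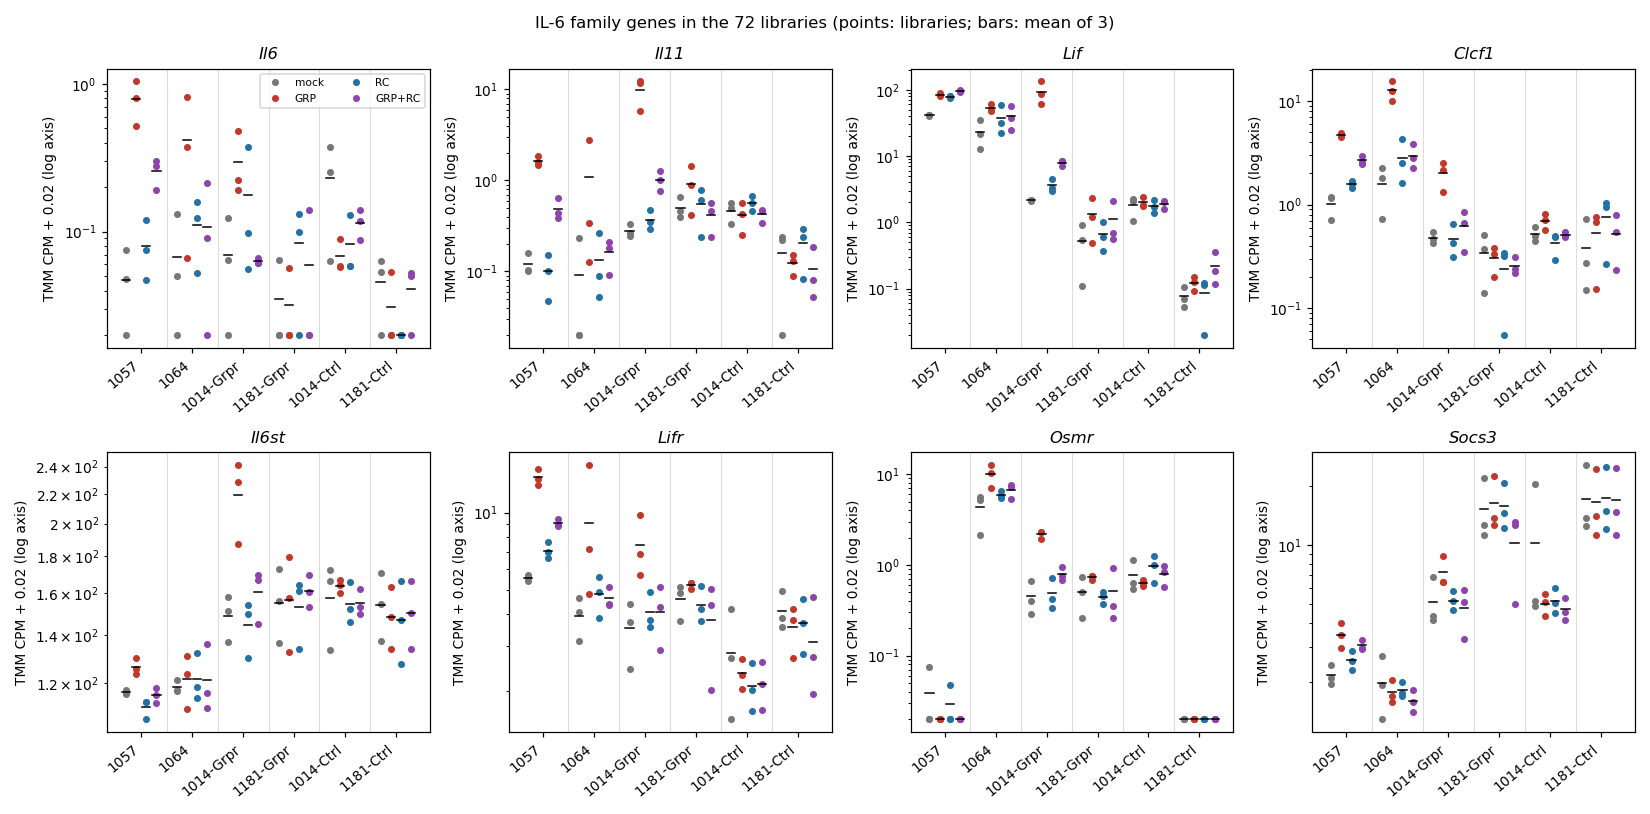
TMM-normalized CPM + 0.02 of each gene on a log axis, in 6 lines and 4 treatments; points are libraries and bars the mean of 3, with normalization within each line. GRP libraries of Il6 and Il11 stand above mock in 1057, those of Lif and Il11 rise furthest in 1014-Grpr, and Osmr is near 0 in 1057 and at 0 in 1181-Ctrl.

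In 1181-Grpr no member was called after GRP, by edgeR or DESeq2, none of the 6 tested had an unadjusted p under 0.05, and 0% of all genes were called. Lif had 3, 20 and 14 counts in mock, and 77, 13 and 34 with GRP (log2 fold change 1.45 ± 0.806), and Il11 had 21, 10 and 10, and 48, 11 and 25 (0.89 ± 0.538). Mock and GRP overlapped for both. These fits include the library of this line that goes against its label. Without it and with the replicate block, Lif (1.56 ± 0.504) and Il11 (0.91 ± 0.341) had an unadjusted p under 0.05, and neither was called. Grpr itself was lower in this line than in 1014-Grpr, with medians of 17.9 against 183 CPM over 12 libraries each. Grpr also moved with GRP, from a mean of 11.7 to 46.2 CPM here and from 125 to 530 CPM in 1014-Grpr. It went the other way in 1057, from 274 to 204 CPM, and in 1064, from 1007 to 500 CPM. The part these differences play was not tested.

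The lines without the receptor gave the background. In 1014-Ctrl none of 7 members was called by edgeR or DESeq2 and 0% of all genes were, and in 1181-Ctrl none of 4 members and 0% of genes. In 1014-Ctrl 1 member, Socs3, had an unadjusted p under 0.05, and none did in 1181-Ctrl. Socs3 in 1014-Ctrl stood at log2 fold change -1.02 ± 0.463 (edgeR adjusted p = 0.698), and at -0.01 ± 0.168 without the mock library that goes against its label. The remaining members of 1014-Ctrl lay between -0.3 and 0.43 on the log2 scale, and between -0.49 and 0.4 without that library. Il6 had at most 9 counts in any library of the 2 control lines.

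**Figure D3:**
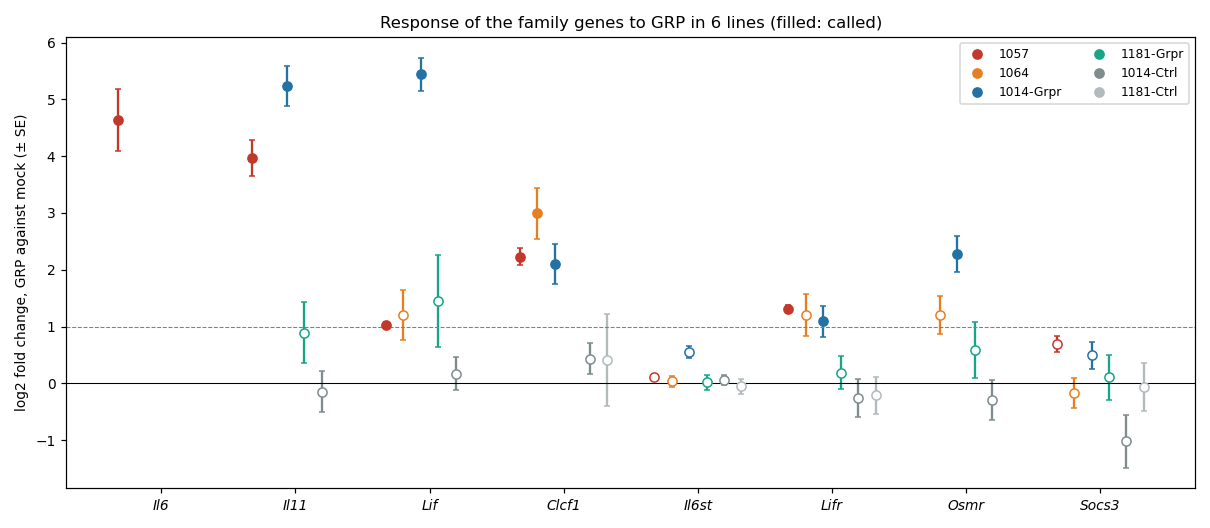
Log2 fold change of GRP against mock (vertical axis, ± SE) for each gene in each line where it was tested; filled points were called, and the dashed line is the fold limit of 1. Clcf1 was called in 3 lines, Il11, Lif and Lifr in 2, and Il6 and Osmr in 1, while Socs3 and Il6st were called in none.

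The GRP effect in 1014-Grpr exceeded that in 1014-Ctrl by more than the limit for 5 of 7 members, beside 3.01% of all genes called higher, again from the values used to pick them. The difference was 5.38 ± 0.516 on the log2 scale for Il11, 5.27 ± 0.41 for Lif, 2.57 ± 0.493 for Osmr, 1.66 ± 0.468 for Clcf1 and 1.34 ± 0.44 for Lifr. Without the 2 libraries that go against their labels it was 5.34, 5.55, 2.77 and 1.71 for the first 4, and 0.95 for Lifr, which was then not called. Clcf1 and Lifr were also not called without any 1 of the 3 replicates or with no filter on low counts, and Osmr not without replicate 1. In the 1181 pair no member of 7 and 0% of all genes passed by edgeR, none by DESeq2, and no member had an unadjusted p under 0.05.

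RC added to GRP took most of the response away in 1014-Grpr and less of it in 1057. In 1014-Grpr, 4 of 7 members were called lower in GRP+RC than in GRP, beside 1.59% of all genes. The GRP libraries are those on which the genes were picked, so that some fall would follow from the choice. Lif had 7.1, 8.32 and 8.35 CPM with GRP+RC (log2 fold change -3.56 ± 0.255 against GRP, edgeR adjusted p = 2.13e-05). Il11 had 16, 24 and 30 counts (-3.32 ± 0.298, adjusted p = 4.49e-05), and it passed the filter on low counts only through groups given GRP. Osmr (-1.48 ± 0.3, adjusted p = 0.00741) and Clcf1 (-1.72 ± 0.353, adjusted p = 0.00781) fell by the same edgeR test, but Osmr lost its call without replicate 1 (adjusted p = 0.112), as did Clcf1 without any 1 of the 3 replicates (0.0605 to 0.0882). Lifr was at -0.87 ± 0.267 (edgeR adjusted p = 0.0546). In the mean CPM, the part of the GRP rise left with RC was 6.35% for Lif, 7.58% for Il11, 9.68% for Clcf1, 14.4% for Lifr and 19.9% for Osmr.

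What was left of the response in 1014-Grpr was still visible for Lif and Il11. Against mock, Lif was the 1 member of 7 called higher in GRP+RC, beside 0.153% of all genes (log2 fold change 1.89 ± 0.301, edgeR adjusted p = 0.0164). Without any 1 of the 3 replicates this call was lost, with adjusted p from 0.0953 to 0.205. The mock libraries also entered the choice of genes, and Il11 passed the filter on low counts only through groups given GRP. Il11 stood at 1.92 ± 0.424 (edgeR adjusted p = 0.0582), and with the replicate block, which pairs the libraries of this line, both were called (adjusted p = 0.00176 for Il11 and 3.74e-05 for Lif). Against RC alone, in libraries that did not enter the choice of genes, no member of 7 was called by edgeR (0% of all genes), 2 had an unadjusted p under 0.05 (edgeR adjusted p = 0.261 for Lif and 0.319 for Il11) and DESeq2 called 1. With the block, Il11 (1.56, adjusted p = 0.0111) and Lif (1.14, adjusted p = 0.00419) were called, and GRP+RC libraries of both lay above every RC library.

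In 1057, Il6 and Il11 were the 2 of 7 members called lower in GRP+RC than in GRP, beside 0.754% of all genes. Here too the genes were picked on the GRP libraries, so that some fall would follow from the choice, and both genes passed the filter on low counts through groups given GRP. Il6 had 10, 6 and 9 counts with GRP+RC (log2 fold change -1.69 ± 0.353, edgeR adjusted p = 0.00149). Il11 had 16, 13 and 20 counts (-1.81 ± 0.239, adjusted p = 1.64e-05). For both genes, each GRP+RC library lay below each GRP library. The part of the rise left was 28.3% for Il6, 24.2% for Il11, 43.2% for Lifr and 44.9% for Clcf1. Clcf1 (-0.82 ± 0.128, edgeR adjusted p = 9.03e-05) and Lifr (-0.6 ± 0.0707, adjusted p = 4.84e-06) passed the p threshold but not the fold limit. In a single fit of all 72 libraries neither Il6 nor Il11 was called, and DESeq2 gave no adjusted p for Il6.

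Lif in 1057 behaved differently from the others. With GRP+RC it had 100.2, 96.1 and 91.6 CPM, above each GRP library, and the difference to GRP was 0.18 ± 0.0399 on the log2 scale (edgeR adjusted p = 0.00201). RC alone gave 80.0, 75.9 and 79.1 CPM against 41.7, 40.8 and 41.3 in mock (0.92 ± 0.0423, adjusted p = 4.46e-11). These RC libraries lay above every mock library, and the change, nearly as large as that with GRP, fell just under the fold limit. Against mock, GRP+RC called 4 of 7 members higher, beside 3.02% of all genes, and Lif stood at 1.22 ± 0.0419 (edgeR adjusted p = 1.09e-13). The mock libraries, used here and for RC alone, are among those the genes were picked on. Of the members called, Il6 and Il11 passed the filter on low counts through groups given GRP. In the mean CPM, RC alone held 85.6% of the GRP rise of Lif and GRP+RC held 126%.

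RC alone called no member in 1057 by edgeR or DESeq2, beside 0.888% of all genes called, but 4 of 7 had an unadjusted p under 0.05. Besides Lif, Clcf1 stood at 0.63 ± 0.183 (edgeR adjusted p = 0.0174) and Lifr at 0.35 ± 0.0824 (adjusted p = 0.00443), each with every RC library above every mock library. Il6st went the other way, at -0.07 ± 0.0327 (edgeR adjusted p = 0.137), with every RC library below every mock library. Il6 had 1, 2 and 3 counts and Il11 3, 1 and 4 counts with RC alone, in the range of mock. In 1064 and 1014-Grpr, 0% of all genes and no member were called with RC alone by either tool, and Lif of 1014-Grpr was the 1 member at an unadjusted p under 0.05. Its RC libraries, at 3.32, 2.94 and 4.54 CPM, lay above its mock libraries (0.76 ± 0.326, edgeR adjusted p = 1). RC alone also called no member and 0% of all genes in 1181-Grpr, 1014-Ctrl and 1181-Ctrl by either tool. In 1014-Ctrl, Lif averaged 1.78 CPM in mock and 1.74 CPM with RC. Without the mock library that goes against its label its log2 fold change was -0.3 ± 0.237. In 1181-Ctrl it was near the floor, at 0.0572 and 0.0656 CPM. The RC effect on Lif did not differ detectably between 1057 and 1014-Grpr (0.16 ± 0.34) or between 1057 and 1064 (0.21 ± 0.455). These differences, chosen after the values were seen, passed for no member by edgeR or DESeq2, beside 0.129% of all genes called higher in 1057 than in 1014-Grpr and 0% against 1064. No member had an unadjusted p under 0.05, the edgeR adjusted p of Lif was 1 in both, and their SEs leave room for a difference in either direction.

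GRP given on top of RC in 1057 compares neither the mock nor the GRP libraries, although both enter the same fit, its filter and its estimate of the spread. Of 7 members, Il6 and Il11 were called higher in GRP+RC than in RC, beside 0.859% of all genes. Il6 was at log2 fold change 1.96 ± 0.614 (edgeR adjusted p = 0.0295) and lost this call without any 1 of the 3 replicates, with adjusted p from 0.0924 to 0.168. Il11 was at 2.53 ± 0.443 (adjusted p = 0.000364). Clcf1 (0.77 ± 0.153, adjusted p = 0.00114), Lifr (0.36 ± 0.077, adjusted p = 0.00215) and Lif (0.29 ± 0.04, adjusted p = 2.75e-05) passed the edgeR p threshold under the fold limit. All 3 had each GRP+RC library above each RC library. The median of the 7 members was 0.36, beside -0.01 for all genes, and a single fit of all 72 libraries called none of them.

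In 1064, no member of 6 was called lower in GRP+RC than in GRP by edgeR, beside 0.0145% of all genes, 2 had an unadjusted p under 0.05 and DESeq2 called 1. Clcf1 had 3.8, 2.22 and 2.82 CPM with GRP+RC, below each GRP library (log2 fold change -2.11 ± 0.436, edgeR adjusted p = 0.117), and with the replicate block it was called (-2.13, adjusted p = 0.000962). In the mean CPM, 12.3% of its GRP rise was left with RC. The GRP libraries of 1064 likewise entered the choice of genes. Lif had 24.6, 57.4 and 38 CPM with GRP+RC, and 22, 59.1 and 31.9 CPM with RC, in the order of replicates, both overlapping with mock and with GRP.

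**Figure D4:**
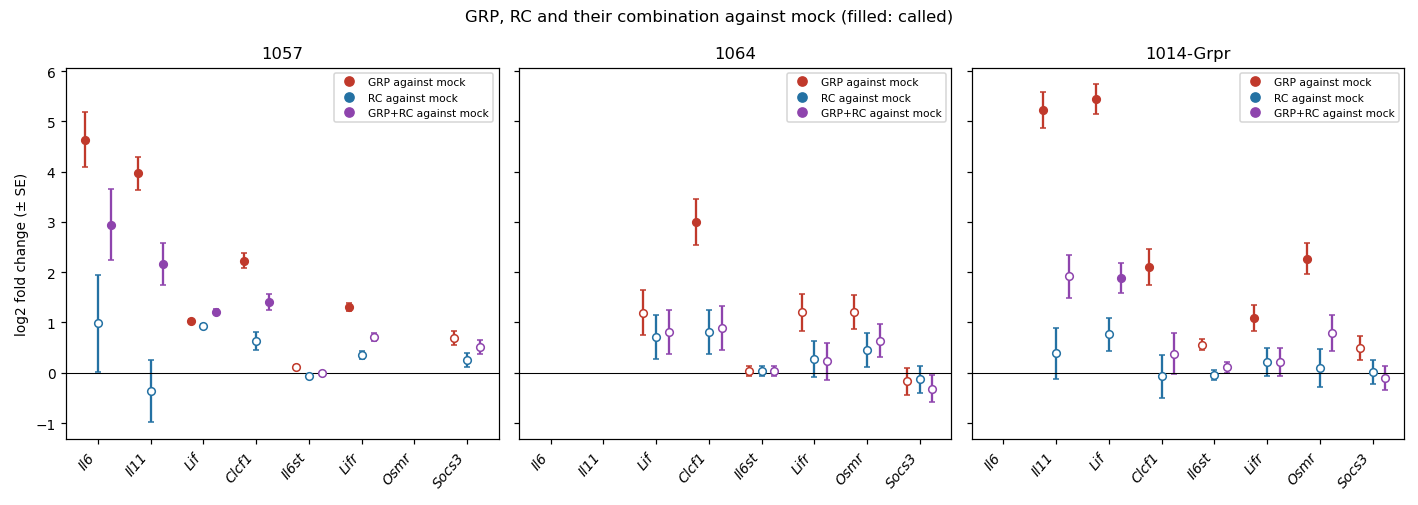
Log2 fold change against mock (vertical axis, ± SE) of GRP, RC and GRP+RC in 1057, 1064 and 1014-Grpr for each gene tested; filled points were called. Values with GRP+RC lie between RC and GRP for Clcf1 and Lifr in 1057, while for Lif in 1057 all 3 treatments lie between 0.92 and 1.22.

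The effect of RC on GRP-treated cells differed between 1057 and 1014-Grpr for 2 of 8 members, beside 0.837% of all genes called higher. This comparison was chosen after the values were seen, and it uses the GRP libraries on which the genes were picked. Lif fell by 3.56 on the log2 scale in 1014-Grpr and stood at 0.18 in 1057, a difference of 3.74 ± 0.247 (edgeR adjusted p = 9.66e-09). For Il11 the difference was 1.52 ± 0.42 (adjusted p = 0.0325), and it was not called without replicate 2 or without replicate 3. Between 1057 and 1064 no member passed by edgeR or DESeq2, beside 0.00663% of all genes, and 1, Clcf1, had an unadjusted p under 0.05 (1.3 ± 0.459, edgeR adjusted p = 0.579).

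Partners of the cytokines were present in part. Of 13 other ligands and receptors of the family, 4 to 6 were abundant enough to be tested in a line, and none was called after GRP in any of the 6 lines by edgeR. Beside this, 4.96% of all genes were called higher in 1057, 1.52% in 1064 and 3.16% in 1014-Grpr, and 0% were called in the other lines. With so few genes tested, in a list chosen with earlier results of these data known, the absence of calls says little. Oncostatin M, the ligand of Osmr, had 0 counts in 69 of 72 libraries and 1 count in the others. Il11ra1, the private receptor of IL-11, was at 13.7 to 30.0 TPM in all lines by mean. Il6ra outside 1057 was at no more than 1.19 ± 0.157 TPM, in 1181-Ctrl.

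Of 25 JAK-STAT transducers and regulators, which include the JAK kinases, the STAT factors and inhibitors of both, 23 or 24 were tested in each line. None was called after GRP in 1057, beside 4.96% of all genes called higher. Like the members, this list was chosen with earlier results of these data known, so its values are a description. Stat3 rose under the fold limit in 1057 (0.52 ± 0.0293, edgeR adjusted p = 3.68e-11) and 1014-Grpr (0.5 ± 0.064, adjusted p = 0.00013). In 1064 it stood at 0.45 ± 0.129 (edgeR adjusted p = 0.067). Jak1 (-0.1 ± 0.0308) and Jak2 (-0.18 ± 0.032) went the other way in 1057. Ptpn6, a phosphatase of JAK signalling, was called lower in 1064, as were 0.797% of all genes (17.6 ± 5.94 CPM in mock, 8.19 ± 0.717 with GRP, log2 fold change -1.11 ± 0.253, edgeR adjusted p = 0.0303). Socs5 was called higher in 1014-Grpr, as were 3.16% of all genes (72.1 ± 3.5 to 149 ± 18.1 CPM, 1.05 ± 0.0918, edgeR adjusted p = 8.06e-06). The median log2 fold change of the list was -0.10 in 1057, -0.00286 in 1064 and 0.05 in 1014-Grpr, beside -0.01, -0.02 and -0.02 for all genes tested.

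Of 16 genes listed as STAT3 targets, 10 were tested in each of the lines 1057, 1064 and 1014-Grpr. The list was chosen with earlier results of these data known, so its counts, medians and p-values are a description. With GRP, 3, 1 and 3 of those tested rose, beside 4.96%, 1.52% and 3.16% of all genes called higher. In 1057 these were Cebpb, a factor of the acute phase (2.1 ± 0.151, edgeR adjusted p = 1.29e-09), Timp1, an inhibitor of metalloproteases (1.91 ± 0.122, adjusted p = 2.32e-10), and Gadd45g, a stress gene (1.23 ± 0.219, adjusted p = 0.000119). In 1064 it was Cebpb (1.5 ± 0.378, edgeR adjusted p = 0.0445), and the block added Timp1. In 1014-Grpr they were Cebpd (1.93 ± 0.227, edgeR adjusted p = 7.27e-05), Bcl3 (1.23 ± 0.386, adjusted p = 0.0314) and Timp1 (1.2 ± 0.151, adjusted p = 0.000122). The median of the list was 0.71 in 1057, 0.36 in 1064 and 0.77 in 1014-Grpr, on the log2 scale, beside the same medians of all genes. Socs3, the target most closely tied to STAT3, is not in this list, since it is one of the 8 members. Cebpd, which stood at 0.64 ± 0.226 with GRP in 1057, was the 1 gene of the list called lower in GRP+RC than in GRP in 1014-Grpr (-1.73 ± 0.227, edgeR adjusted p = 0.00046), beside 1.59% of all genes.

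For 5 members, the genes with the most similar pattern were sought by Pearson's r over 24 means of line and treatment, centred on each line, among 16595 other genes. The means share libraries and treatments, and r is a description. Il6 was nearest to Nptxr (r = 0.967), Arhgap18 and Baalc, Il11 to Inhba (0.983), Btc and Nxph3, and Lif to Fam241a (0.975), Trib1 and Zc3h15. Clcf1 was nearest to Arf6 (0.977), Nrip1 and Irak2, and Socs3 to Lig3 (0.943), Capn15 and Hspb8. Within the family, Il11 and Lif had r = 0.913, Il11 and Il6st 0.913, and Clcf1 and Lifr 0.878, whereas Socs3 reached 0.605 at most, with Lifr. The nearest genes depended on the settings. With a pseudocount of 0.1 in place of 1, none of the 3 genes nearest to Il11 or to Clcf1 was kept, and without the 2 libraries that go against their labels none of those nearest to Il6 or Socs3 was.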

How the data were processed

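Poly(A) RNA of 72 libraries was sequenced from a strand-specific kit. The authors deposited raw counts per gene, whole numbers that were not normalized, and TPM, which scale counts by transcript length and library. According to the study's methods, reads were mapped with STAR to GRCm38, and the submitters' processing notes also name FastQC 0.11.5. Of 50600 gene IDs, 50376 had a symbol. Some deposited TPM columns use a decimal comma and were read accordingly.

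Counts were tested with edgeR 4.0.16 (R 4.3.3, limma 3.58.1): filterByExpr, TMM normalization, the quasi-likelihood test and Benjamini-Hochberg adjustment over all genes tested, in 1 fit of the 12 libraries of each line. The study's methods use DESeq2, run here as version 1.42.0 as an alternative. Comparisons between lines used 24 libraries. SE was taken as |log2 fold change| over the square root of F. CPM are TMM-normalized within a line, except Grpr and Cdh1 levels, which are normalized over 72 libraries. TPM were used for levels between genes or lines. Intervals and the floor of 3 counts cover counting error only, since reads carried no molecular identifiers. Scripts were tested on simulated data.

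Members, gene lists and tests were chosen with earlier results of these data known. Named genes are the 8 members, at most 3 called genes per pathway list and line by size of change, and for 5 members the 3 genes most alike in pattern. Partners of the cytokines, Stat3, Jak1 and Jak2, and Cebpd outside 1014-Grpr, were named after their values were seen. Alternatives were DESeq2, its size factors, the adjusted p alone, omitting the filter on low counts, a fit of all 72 libraries, a replicate block, and leaving out single libraries, replicates or the 2 libraries that go against their labels. Same-numbered libraries deviated together in every pair in 1064 (lowest r = 0.664), 1014-Grpr (0.5) and 1181-Ctrl (0.853), so that the block was read there. In 1057 (lowest r = -0.271, mean 0.045) 6 of 18 such pairs had r over 0.1. In 1181-Grpr (lowest -0.041, mean 0.495) and 1014-Ctrl (lowest 0.062, mean 0.385) 15 of 18 did, so that most pairs deviated together there. Both of these lines hold a library that goes against its label, and its part in the lowest r was not tested. The block was read in 1181-Grpr only without that library. No replicates were copies of each other, with at least 2.556 chi-square per degree of freedom.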

Additional observations from a re-analysis of the deposited data

Results flagged for a closer look

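The effect of GRP differed between 1014-Grpr and 1014-Ctrl, by the interaction term in edgeR, for 5 members: by 5.38 on the log2 scale for Il11, 5.27 for Lif, 2.57 for Osmr, 1.66 for Clcf1 and 1.34 for Lifr. These values include the libraries on which the genes were picked and are a description. Lifr was not called without the 2 libraries that go against their labels.

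The effect of RC on GRP-treated cells differed between 1057 and 1014-Grpr by 3.74 on the log2 scale for Lif and by 1.52 for Il11, by the same kind of term (edgeR adjusted p = 9.66e-09 and 0.0325). This test was added after the values were seen and uses the GRP libraries on which the genes were picked. The Il11 difference was not called without replicate 2 or replicate 3.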

How the results depend on the processing

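Of 1141 alternative values for the 61 results on single members that were called in at least 1 fit, none changed direction, 1048 kept their side of the threshold, 49 lost a call and 44 gained one. Results called in no fit could change direction, as Socs3 did between mock cells of the 1014 pair (-0.96, and 0.06 without the 2 libraries that go against their labels). The counts of called genes that moved most were as follows. DESeq2 called 1 member (2 in edgeR) in GRP+RC against GRP and in GRP+RC against RC in 1057, 4 in GRP against mock and 1 in GRP+RC against GRP in 1064, and in 1014-Grpr 2 in GRP+RC against mock and 1 against RC. The replicate block, in the lines where numbers pair the libraries, called 4 and 1 in those contrasts of 1064, and 2 and 2 in those of 1014-Grpr. It changed other calls only for Socs3 in the 1014 interaction and for pathway genes. In 1014-Ctrl, which enters that interaction, 15 of 18 same-numbered pairs had r over 0.1. With the block and without the 2 libraries that go against their labels, 1 pathway gene was called with GRP in 1181-Grpr. With no filter on low counts, 2 members were called in GRP+RC against mock and 2 against RC in 1014-Grpr, and 1 between mock cells of the 1181 pair. A fit of all 72 libraries called 0, 2 and 0 members in 1057 (GRP+RC against GRP, mock and RC), 6 with GRP and 2 in GRP+RC against GRP in 1064, and 2 pathway genes with GRP in 1014-Grpr. By the adjusted p alone, 3, 6 and 5 members were called in 1057 (RC against mock, GRP+RC against GRP, GRP+RC against RC), 2 between resting 1057 and 1064, and 28, 5 and 16 pathway genes with GRP in 1057, 1064 and 1014-Grpr. Where a setting changed a count, the cause was not tested.

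Without 1 replicate or library, members called ran from 4 to 5 (GRP, 1014-Grpr), 0 to 2 (GRP, 1064), 2 to 3 (1014 interaction), 2 to 5 (GRP+RC against GRP, 1014-Grpr), 1 to 2 (its difference between 1057 and 1014-Grpr), 1 to 2 (GRP+RC against RC, 1057), 0 to 2 (GRP+RC against mock, 1014-Grpr), 0 to 2 (mock, 1181 pair) and 1 to 2 (resting 1057 against 1064). Pathway genes ran from 2 to 4 in 1057, 0 to 2 in 1064 and 3 to 4 in 1014-Grpr. Depth limits Il6, with 0 counts in 18 of 72 libraries and at most 35.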
